A study of Homo sapiens with 6 samples.

Results

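The 353 cassette exon events described here were chosen by their measured response to RBM47. They are 353 of the 24648 events left once exact repeats were dropped, and 353 of the 5515 (6.4%) that were intermediate in control cells. A cassette exon lies between 2 flanking exons and is either included in the mature transcript or skipped. Each event had at least 30 reads in each group, and its pooled control inclusion rate lay above 0.10 and below 0.90. Its pooled rate was higher by at least 0.10 with RBM47, and a two-sided Fisher's exact p from the 4 read totals was at most 0.05. The pooled rate is the number of including reads divided by that number plus 2 times the skipping reads, with reads summed over the 3 samples of a group. Because the comparison of RBM47 with control selected the events, their differences are given as a description and no test of them was made. Their genes numbered 284, and their regions, that is, distinct genes and outer ends, numbered 300. In 43 regions there were 2 or more events, with up to 4 in 1 region, so the 353 are not independent exons.

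RNA came from MDA-MB-231-BrM2a (MDA231-BrM2a) cells, a brain-metastatic derivative of the human breast cancer line MDA-MB-231. In the control group (n = 3) the cells were not clonal and carried the empty retroviral vector pRetroX-Tight-Pur. In the RBM47 group (n = 3) they descended from a single cell and carried the same vector with Flag-tagged wild-type RBM47, which doxycycline induces. Doxycycline was common to both groups, at 10 ng/ml for 3 days. The effect of RBM47 and that of clonal origin cannot be told apart. The RBM47 transcript itself was not analysed here, and nothing in the labels says whether the 3 samples of a group were separate cultures or repeated preparations of 1 culture.

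During splicing, the spliceosome recognises a splice site at each end of an exon, and exons with weak sites are included in only part of the transcripts. RNA-binding proteins that sit in or near such exons move that balance towards inclusion or skipping, and an exon whose length is a multiple of 3 can enter or leave a coding transcript without shifting the reading frame. RBM47 is an RNA-binding protein with RNA recognition motifs, and the study examined it as a suppressor of breast cancer progression. Genes of vesicle coats, cell junctions, the actin cytoskeleton and chromatin complexes are among those that hold such exons.

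Of the 353 events, 144 shared both outer ends with another event and were not matched to an exon. An exon was placed for 109 of the 353 (30.9%). It was the only exon of the gene that lies between 2 neighbours with the same outer span in the GENCODE annotation of GRCh37. The sequences of 7 such coding exons are shown because they carry some of the largest differences (MYO6, OSBPL6, RALGPS2), were examined by the study (MBNL1) or, in 3 cases chosen after their values were seen, stand for transport and cytoskeletal genes (KIF13A, EXOC1, MACF1). Capitals mark the exon, preceded by 20 and followed by 10 intron bases in lower case, on the transcribed strand of the GRCh37 genome.
MYO6, chr6:76604531-76604557, plus strand: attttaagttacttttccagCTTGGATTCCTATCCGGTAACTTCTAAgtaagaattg
OSBPL6, chr2:179204399-179204491, plus strand: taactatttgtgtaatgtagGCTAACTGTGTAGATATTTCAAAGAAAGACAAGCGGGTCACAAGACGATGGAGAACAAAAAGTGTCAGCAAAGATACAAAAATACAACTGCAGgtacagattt
RALGPS2, chr1:178861365-178861442, plus strand: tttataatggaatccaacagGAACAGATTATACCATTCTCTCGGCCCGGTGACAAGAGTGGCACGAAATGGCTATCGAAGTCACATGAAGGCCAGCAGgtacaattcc
MBNL1, chr3:152164493-152164546, plus strand: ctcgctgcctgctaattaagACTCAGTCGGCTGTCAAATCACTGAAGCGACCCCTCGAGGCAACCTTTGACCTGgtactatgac
KIF13A, chr6:17771345-17771449, minus strand: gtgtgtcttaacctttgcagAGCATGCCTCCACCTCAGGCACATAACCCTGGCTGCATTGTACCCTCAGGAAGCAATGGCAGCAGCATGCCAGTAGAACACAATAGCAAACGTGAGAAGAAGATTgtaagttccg
EXOC1, chr4:56755054-56755098, plus strand: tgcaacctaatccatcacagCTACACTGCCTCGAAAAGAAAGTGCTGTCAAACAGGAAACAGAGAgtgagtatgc
MACF1, chr1:39930767-39930784, plus strand: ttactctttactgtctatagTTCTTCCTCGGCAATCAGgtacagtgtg
All 7 exons had a length that is a multiple of 3, from 18 bases in MACF1 through 27 in MYO6, 45 in EXOC1, 54 in MBNL1, 78 in RALGPS2 and 93 in OSBPL6 to 105 in KIF13A. Each was preceded by AG and followed by GT, the usual ends of an intron.

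The inclusion rate of each sample, on a scale from 0 (always skipped) to 1 (always included), was deposited beside the pooled reads and could be assigned to 349 of the 353 events. In 182 of them the rates stood in the right row as deposited. In 1392 of the 24725 rows of the table (5.63%) the rates did not average to the averages printed in the same row, and they were re-matched through those averages. Of the 353 events, 78 were re-matched by both group averages and 89 by the RBM47 average alone, and 4 had no unique match. Over the 229 events re-matched in the second way that had the minimum of 30 reads, the matched control mean followed the pooled control rate across events (r = 0.965), and the printed control average did not (r = 0.0308). These r values only describe the matching, and the events share their libraries. The 89 events are given with the others, and the counts by size of difference, the spread and the counts by gene list are also given for the other 260.

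Mean sample rates were higher with RBM47 by a median of 0.156 (quartiles 0.115 and 0.228) over the 349 events, against 0.00139 over all intermediate events with rates. The median of the mean rates was 0.423 in control and 0.638 with RBM47. By sample rates 40 of the 349 events had a control mean of at most 0.10, so they were intermediate by pooled rates only. The MYO6, PDGFA and RALGPS2 events described below were among them. So were the events of FHL1, RANBP1, ZNF655 and HINFP, and the SEC31A events with control means of 0.0639 and 0.0827. Per sample, the median rate was 0.400, 0.400 and 0.416 in control 1 to 3 and 0.600, 0.659 and 0.643 in RBM47 1 to 3. The difference was at least 0.2 in 119 events, at least 0.3 in 54 and at least 0.5 in 10. Without the 89 events these counts were 30, 5 and 0 of 260, so most of the large differences rest on that match. In 195 events (55.9%) all 3 RBM47 rates lay above all 3 control rates, whereas 8.97% of intermediate events did so. Nothing is read from that contrast, since the same samples chose the events. In the 182 events whose rows were aligned as deposited, the median difference was 0.130 and 79 did not overlap. In the 260 events left without the 89, the median was 0.130 and 121 (46.5%) did not overlap. In the 89 events re-matched through the RBM47 average, the median difference was 0.324 and 74 did not overlap. The pooled reads needed no matching, but the rule chose the events by them. They gave median differences of 0.140 in the 182 aligned events and 0.259 in the 89 events.

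**Figure D1:**
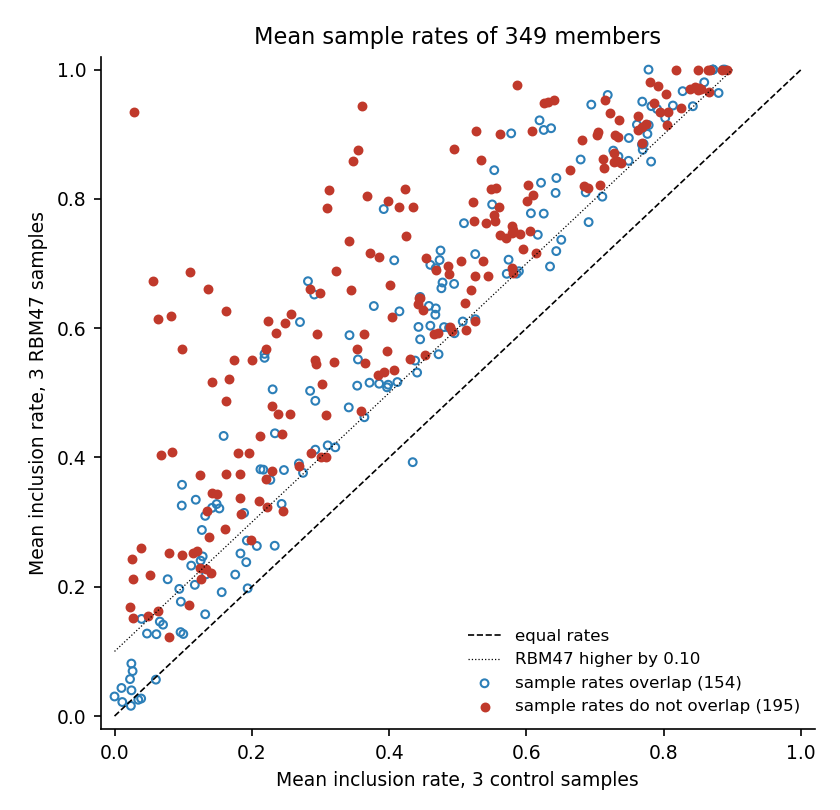
Mean inclusion rate over the 3 control samples (x axis) and the 3 RBM47 samples (y axis), both from 0 to 1, with 1 point for each of the 349 events with sample rates. Filled points are the 195 events whose sample rates do not overlap between groups, and the dotted line marks a difference of 0.10, below which 59 events lie.

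Replicate spread set how well single events could be read. The median SD over 3 samples was 0.0579 in control and 0.0697 with RBM47, and it was larger with RBM47 in 206 of 349 events. Over the 260 events the medians were 0.0578 and 0.0636, and the SD was larger with RBM47 in 150. RBM47 replicate 2 stood apart, with 18.1% of its rates at exactly 0 or 1, against 9.46% and 8.60% in RBM47 replicates 1 and 3 and 3.15% to 4.01% in the control samples, and over the 260 events its share was again 18.1%. The same replicate had 15% of such rates over all intermediate events, where the other 5 samples had 4.70% to 6.62%. Rates of exactly 1 numbered 53 in that replicate, 30 and 27 in the other RBM47 samples and 2 to 6 in the control samples. Depth per sample is unknown, so its part in these extreme rates was not tested. Without RBM47 replicate 2 the median difference was 0.152.

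The event with the largest difference lay in MYO6, whose product, myosin VI, walks towards the minus end of actin filaments and moves endocytic cargo. Its 27-base exon had rates of 0.0833, 0 and 0 in control 1 to 3 and of 0.961, 0.931 and 0.912 in RBM47 1 to 3. The groups were far apart, with means of 0.0278 ± 0.0481 and 0.935 ± 0.0249 (SD, n = 3 each). The pooled reads gave a smaller difference, from 0.191 to 0.936, on 56 control reads and 332 RBM47 reads. PDGFA encodes a chain of platelet-derived growth factor, and its event stood at 0.0710, 0.0370 and 0.0608 in control samples and at 0.621, 0.679 and 0.719 with RBM47. Every RBM47 sample was thus far above every control sample, and the pooled rates were 0.115 and 0.691.

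SEC31A, which encodes the outer shell of the COPII coat that buds vesicles from the endoplasmic reticulum, held 5 of the events. They share an outer end at the table's position 83969176 on chromosome 4, and the 3 with the longer span were counted with the same skipping reads, so they are not 5 separate observations. For the span 83969176-83984685, 1 middle exon choice had rates of 0.0850, 0.0496 and 0.0571 in control and 0.588, 0.672 and 0.584 with RBM47. For the shorter span 83969176-83982657, the rates of 1 choice were 0.0994, 0.0885 and 0.0602 in control and 0.588, 0.562 and 0.708 with RBM47. The other choice in the shorter span was included more in both groups, at a mean of 0.354 ± 0.117 in control and 0.876 ± 0.0468 with RBM47, with a pooled difference of 0.334. The remaining choices in the longer span had differences of 0.221 and 0.169, and in none of the 5 did the groups overlap. In a different span, SEC31A also held an event with lower inclusion. Its rates were 0.746, 0.706 and 0.723 in control and 0.606, 0.537 and 0.553 with RBM47. The difference was -0.159, also without overlap.

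Other large differences lay in genes of membranes and junctions. CTAGE5, which takes part in export of large cargo from the endoplasmic reticulum, had rates of 0, 0.188 and 0.143 in control and 0.744, 0.692 and 0.624 with RBM47, on only 33 control reads. TJP1 encodes the tight-junction scaffold ZO-1, and its 240-base coding exon (GRCh37 chr15:30011981-30012220) had rates of 0.400, 0.333 and 0.310 in control and 0.820, 0.957 and 0.798 with RBM47. In each of these genes the lowest RBM47 sample was above the highest control sample. OSBPL6, an oxysterol-binding-protein relative, had rates of 0.290, 0.467 and 0.179 in control and 0.692, 1 and 0.750 with RBM47 for the 93-base exon shown above. RALGPS2, an exchange factor for Ral GTPases, had 0.0968, 0.2 and 0 in control and 0.467, 0.600 and 0.636 with RBM47.

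Chromatin and cytoskeletal genes were also among the 15 largest. PBRM1 encodes a bromodomain subunit of a SWI/SNF chromatin remodeler, and 2 of its events shared the span 52559802-52571023 on chromosome 3. The first had rates of 0.265, 0.500 and 0.314 in control and 0.833, 1 and 1 with RBM47, and the second had 0.463, 0.750 and 0.547 and then 0.929, 1 and 1. Only 1 skipping read was counted in the RBM47 group, so the upper end rests on few reads. SEPTIN6, a filament-forming GTPase that the table lists as a calendar date (identified by its gene number), held 3 events, and the largest went from 0.364, 0.189 and 0.377 to 0.812, 0.659 and 0.885. ZNF514, a zinc-finger gene, and DIAPH2, a formin that nucleates actin, had the widest RBM47 spread of the 15, with SDs of 0.341 and 0.219, and in both the sample at 1 was RBM47 replicate 2. Without it the ZNF514 difference was 0.277 in place of 0.464, and the pooled difference was 0.259. All 15 of these largest differences came from rows re-matched through the RBM47 average. The largest among rows aligned as deposited was an event of RPL9, a ribosomal protein gene, with rates of 0.333, 0.231 and 0.333 in control and 0.765, 0.500 and 0.700 with RBM47, but with a pooled difference of 0.148 against 0.356 from the samples.

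**Figure D2:**
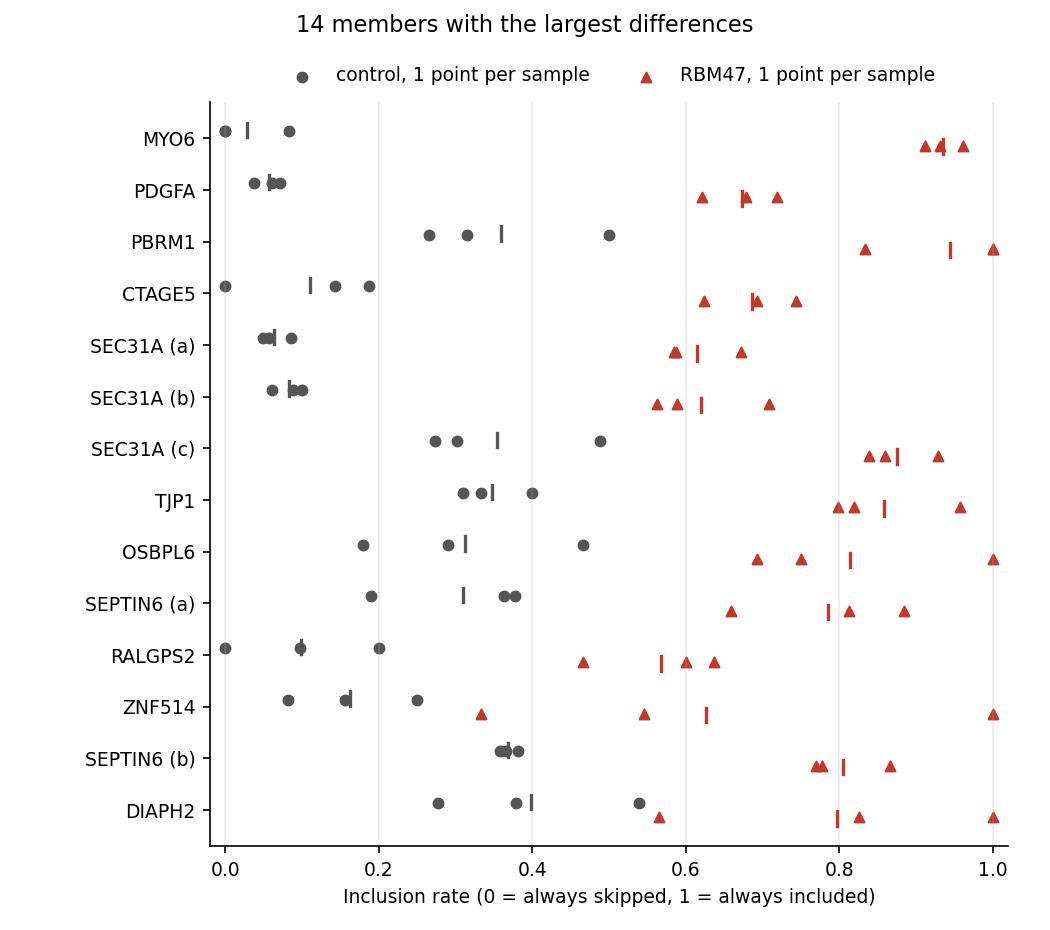
Inclusion rate (x axis, 0 to 1) in each sample for 14 of the 15 events with the largest difference in mean rate whose groups do not overlap. Circles are the 3 control samples, triangles the 3 RBM47 samples and short bars the group means. MYO6 has its means at 0.0278 and 0.935, and the RBM47 triangles of ZNF514 spread from 0.333 to 1.

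The events with the most reads had smaller differences and mostly tight replicates. MACF1, which encodes a large linker of actin and microtubules, had 4626 reads over both groups. Its 18-base exon stood at 0.286, 0.295 and 0.298 in control and at 0.548, 0.549 and 0.538 with RBM47, a difference of 0.251 with an SD of 0.00629 in control and 0.00613 with RBM47. AP2M1 encodes the cargo-binding medium subunit of the clathrin adaptor AP-2, and its event stood at 0.281, 0.292 and 0.287 in control and at 0.399, 0.412 and 0.408 with RBM47. An event on chromosome 6 that the table lists under the small RNA pseudogene RNU6-71P was at 0.790, 0.774 and 0.792 in control and at 0.947, 0.952 and 0.946 with RBM47. In these 3 events the gap between groups was many times the spread within either. CD97, an adhesion receptor of the G-protein-coupled class, had means of 0.359 ± 0.0598 and 0.473 ± 0.00578.

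Among the most deeply read events some overlapped. The 2 deepest events lay in ENO1, the gene of the glycolytic enzyme enolase, with 31473 and 26498 reads. The deeper event had rates of 0.951, 0.691 and 0.662 in control and 0.829, 0.880 and 0.943 with RBM47. Control 1 was the highest of all 6 samples in both events, so the groups overlapped although the pooled rates differed by 0.134 and 0.157. In the deeper event the difference was 0.116 with all samples, 0.207 without control 1 and 0.0626 without control 3. F3, the gene of tissue factor, which starts blood coagulation, had 0.175, 0.223 and 0.199 in control and 0.278, 0.245 and 0.294 with RBM47. The F3 groups did not overlap, and their difference was 0.0734. MORF4L2, a chromatin-associated MRG-family gene, had a difference of 0.182, and PRMT2, an arginine methyltransferase, had 0.172, both without overlap. Another MORF4L2 event had lower inclusion, with a difference of -0.196, also without overlap.

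**Figure D3:**
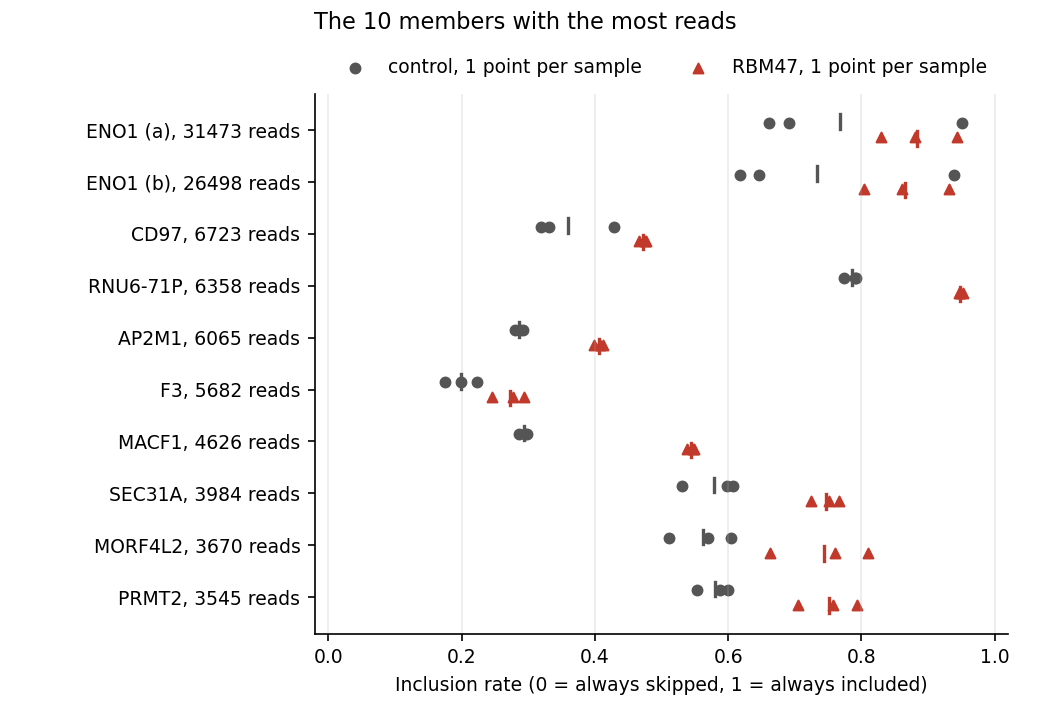
Inclusion rate (x axis, 0 to 1) in each sample for the 10 events with the most reads, with the reads over both groups beside each gene. Circles are control samples, triangles RBM47 samples and short bars group means. MACF1, AP2M1 and RNU6-71P show tight separate groups, and in both ENO1 events 1 control sample lies above the RBM47 samples.

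By function, the events were counted in 13 gene lists, each against the intermediate events of the same list. The lists were drawn up with earlier results of these data known, so their shares describe the set and were not tested. The share over all intermediate events was 6.4%, as given above. In 134 events the gene was in at least 1 list, and 219 were in none. Several events of a list can come from 1 gene and share skipping reads, so the counts by list are not of independent exons. Counts of events that did not overlap are to be read beside 55.9% of all 349 events, a figure that the choice of events raises, and 8.97% of intermediate events. Events of lower inclusion, by the mirrored rule, numbered 347 of the 5515.

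Genes known for exons that differ between epithelial and mesenchymal cells had the highest share, 15 of 62 (24.2%), and in 15 of 15 the sample rates did not overlap. Of the 15, 6 were events of ADAM15 alone, and 4 of the 15 remained without the events re-matched by the RBM47 average, all 4 without overlap. Another 11 events of the list had lower inclusion. Besides TJP1 and RALGPS2, the list held CD44, the hyaluronan receptor with a block of variable exons. One CD44 event had rates of 0.355, 0.284 and 0.387 in control and 0.731, 0.820 and 0.652 with RBM47. KIF13A, a kinesin that carries vesicles to the cell surface, had 0.115, 0.182 and 0.127 in control and 0.427, 0.621 and 0.503 with RBM47 for its 105-base exon. EXOC1, a subunit of the exocyst that tethers secretory vesicles, had 0.2, 0.259 and 0.314 in control and 0.622, 0.611 and 0.633 with RBM47. In all 3 genes the groups were apart, and EXOC1 had the narrowest RBM47 spread, with an SD of 0.0110.

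MBNL1, itself a regulator of splicing, was examined by the study and held 1 event. Its 54-base exon had rates of 0.255, 0.250 and 0.183 in control and 0.471, 0.368 and 0.600 with RBM47, without overlap, on 204 control reads and 55 RBM47 reads. ADAM15, a membrane-anchored metalloproteinase, held those 6 events in 2 spans with shared skipping reads, with differences from 0.0860 to 0.377 by sample rates and from 0.228 to 0.274 by pooled rates. PPFIBP1, a liprin-binding protein gene, had 0.554 ± 0.0722 and 0.765 ± 0.0888 for a 33-base exon. No event of SLK, MDM4, LIMCH1 or TNC was among the 353. The study described skipping with RBM47 for its MDM4 and LIMCH1 exons, which a set of higher inclusion could not hold. For SLK, MBNL1 and SEC31A it described inclusion, by RNA-seq and RT-PCR.

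Adhesion, matrix and receptor genes held 18 of 89 (20.2%), against 11 with lower inclusion, and shared TJP1, CD44 and ADAM15 with the previous list. The 18 events lay in only 11 genes. In 14 of the 18 the samples did not overlap, and in 6 of 10 without the events re-matched by the RBM47 average. Beside PDGFA they included COL13A1, a transmembrane collagen, with means of 0.534 ± 0.0256 and 0.860 ± 0.143. COL13A1 also held 3 events with lower inclusion, with differences of -0.142, -0.128 and -0.149. FGFR1, a receptor for fibroblast growth factors, had 0.242, 0.211 and 0.178 in control and 0.395, 0.289 and 0.314 with RBM47. VEGFA, the vascular growth factor gene, overlapped, with 0.517, 0.483 and 0.576 in control and 0.558, 0.478 and 0.806 with RBM47. Its difference of 0.0885 was -0.00733 without RBM47 replicate 3 and 0.156 without RBM47 replicate 2, and another VEGFA event had lower inclusion, with a difference of -0.108. Actin and myosin genes held 10 of 70 (14.3%), fewer than the 16 with lower inclusion, and 7 of the 10 did not overlap (2 of 5 without the events re-matched by the RBM47 average). Among them were ADD3, an adducin of the membrane skeleton (0.238 ± 0.0518 and 0.468 ± 0.108), and TPM1, a tropomyosin (0.854 ± 0.0284 and 0.970 ± 0.0119).

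Membrane traffic and vesicle-coat genes held 23 of 175 (13.1%), in 18 genes, against 14 events with lower inclusion. In 20 of the 23 the samples did not overlap, and in 8 of 10 without the events re-matched by the RBM47 average. PICALM, a clathrin assembly protein, had rates of 0.684, 0.705 and 0.654 in control and 0.890, 0.889 and 0.897 with RBM47 for a 24-base coding exon (GRCh37 chr11:85689113-85689136). STX2, a SNARE protein of the plasma membrane, had 0.247, 0.251 and 0.387 in control and 0.591, 0.765 and 0.417 with RBM47. The PICALM groups were tight and far apart, whereas the lowest RBM47 rate of STX2 was close to its highest control rate. VPS29, a subunit of the retromer that recycles receptors from endosomes, had 0.406, 0.764 and 0.407 in control and 0.976, 0.861 and 0.878 with RBM47. Its pooled difference was only 0.163, against 0.379 from the samples. VPS29 also held events with lower inclusion, with pooled differences of -0.232 and -0.224 but sample differences of -0.0637 and -0.0035.

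The remaining lists had shares nearer to that of all intermediate events. DNA repair and chromosome genes held 9 of 102 (8.82%), solute carriers 10 of 120 (8.33%), chromatin regulators 11 of 137 (8.03%) and ZNF genes 12 of 154 (7.79%), against 6, 2, 9 and 12 with lower inclusion. Kinases, phosphatases and G-protein regulators held 13 of 177 (7.34%) and ubiquitin and proteasome genes 11 of 161 (6.83%), against 14 and 11. Lower shares were found for mitochondrial and ribosomal proteins (7 of 137, 5.11%), microtubule, centrosome and cilium genes (6 of 140, 4.29%) and RNA-binding proteins (3 of 151, 1.99%), and these lists held 9, 7 and 14 events with lower inclusion, more than with higher inclusion in each. The samples did not overlap in 3 of 8 DNA repair events with rates, 9 of 10 solute carrier, 7 of 11 chromatin, 8 of 12 ZNF, 6 of 13 kinase and phosphatase, 7 of 11 ubiquitin, 6 of 7 mitochondrial and ribosomal, 2 of 6 microtubule and 3 of 3 RNA-binding events. Without the events re-matched by the RBM47 average the counts were 1 of 5, 5 of 6, 4 of 6, 4 of 8, 4 of 10, 6 of 10, 6 of 7, 1 of 4 and 1 of 1 in the same order.

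**Figure D4:**
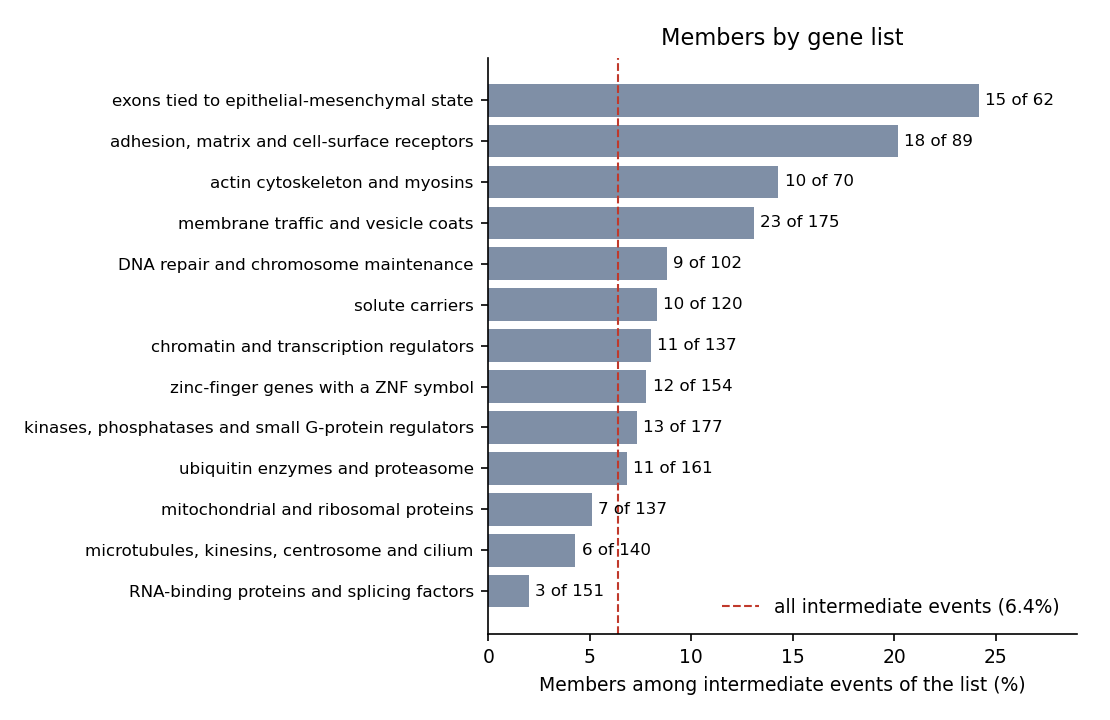
Share (x axis, %) of the intermediate events of each gene list that were among the 353, with the count beside each bar. The dashed line is the share over all intermediate events, 6.4%. The list for epithelial-mesenchymal state is highest at 24.2% and RNA-binding proteins lowest at 1.99%.

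Examples from these lists ranged from tight to overlapping. ORC3, a subunit of the origin recognition complex that licenses replication, had an event at 0.197, 0.152 and 0.175 in control and 0.503, 0.608 and 0.542 with RBM47. OPA1, the dynamin-like GTPase of inner mitochondrial membrane fusion, had 0.278, 0.322 and 0.323 in control and 0.446, 0.488 and 0.464 with RBM47. In both genes the groups did not overlap. TIA1, a splicing regulator that binds U-rich RNA, had means of 0.372 ± 0.109 and 0.717 ± 0.0479 with a pooled difference of 0.171, and FXR2, a relative of the fragile X protein, had 0.134 ± 0.0197 and 0.228 ± 0.0492.

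STAG2, a cohesin subunit, had rates of 0.2, 0.273 and 0.373 in control and 0.351, 1 and 0.667 with RBM47, and RBM47 replicate 1 lay below the highest control sample. The difference was 0.391, and 0.227 without RBM47 replicate 2. HDAC11, a histone deacetylase, overlapped, with control 2 at 1, and its difference of 0.273 was 0.455 without that sample and 0.109 without control 1. SLC10A7, a membrane transporter linked to calcium and glycosylation, had 0.385, 0.385 and 0.500 in control and 0.630, 1 and 0.818 with RBM47, without overlap. PPP1R12A, the targeting subunit of myosin phosphatase, had means of 0.303 ± 0.0418 and 0.513 ± 0.153, and its difference of 0.210 was 0.133 without RBM47 replicate 2. UBXN11, a UBX-domain gene, had 3 events in 1 span, and the largest had 0.364 ± 0.0273 and 0.547 ± 0.0580. Another UBXN11 event had lower inclusion, with a difference of -0.209 and with overlap.

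In reads, most of the 353 events combined more inclusion with less skipping. Totals over all events were 26470301 reads in control and 24092775 with RBM47, a ratio of 0.910, by which counts were scaled. The median ratio of RBM47 to control was 1.27 for including reads and 0.463 for skipping reads, against 0.925 and 0.895 in the 4815 intermediate events that were neither higher nor lower by the rule. Including reads were up and skipping reads down in 223 events (63.2%), against 15.6% of those 4815. Both were down in 105 and both up in 25. The choice of events favours the first pattern. Skipping reads were 0 in the RBM47 group in 16 events, so their pooled rate was 1, and the median depth was 197 reads in control and 163 with RBM47.

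By starting level, the events were 93 of 1348 intermediate events with a pooled control rate of 0.1 to 0.3 (6.9%), 75 of 743 from 0.3 to 0.5 (10.1%), 95 of 915 from 0.5 to 0.7 (10.4%) and 90 of 2509 from 0.7 to 0.9 (3.59%). The median pooled difference was 0.181, 0.199, 0.171 and 0.129 in the same order. The rule used these same pooled rates and set the smallest difference at 0.10. A rate cannot exceed 1, so high starting levels left less room for a difference. These values describe the choice of events, and nothing is read from their order.

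Pooled and sample rates gave unlike differences in some events. The gap between the 2 differences had a median of 0.0263, and it was at most 0.05 in 246 events and more than 0.1 in 47. The pooled control rate was above the mean of the sample rates in 300 of 349 events. In some it lay above all 3 control samples, as in RTN2, with 0.588 pooled against 0.459 to 0.549. Summing the reads behind the sample rates could not give this by the formula for the pooled rate. The 2 rates thus do not share the same reads or calculation, and the reason was not tested. In 5 events the mean sample rate was lower with RBM47. The difference was -0.0416 in BANF1, which links chromatin to the nuclear envelope, -0.0116 in FHL1, -0.00936 in RANBP1, -0.00794 in ZNF655 and -0.0039 in HINFP. BANF1 had rates of 0.477, 0.356 and 0.470 in control and 0.423, 0.281 and 0.474 with RBM47, while its pooled rates were 0.681 and 0.788. In the other 4 genes the sample rates of both groups were all below 0.1, although pooled control rates were 0.176 to 0.316. These negative differences are small, and those of BANF1, FHL1, RANBP1 and HINFP were above 0 without RBM47 replicate 2.

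At the threshold, the members just inside a pooled difference of 0.10 were an event of TSPAN5 (0.1002), RTN2 (0.1004) and an event of WARS (0.1004). Just outside it were events of PIGT (0.0998), AURKA (0.0997) and ABCA5 (0.0997). The difference of RTN2 in mean sample rate was 0.0971, and 0.0214 without RBM47 replicate 2. Sample rates of the TSPAN5 and WARS events did not overlap, and neither did those of AURKA, which the rule left out. The 4 events with no unique sample rates were 1 of ORC3, 2 of PALM2 and 1 of EXOSC1. EXOSC1, a subunit of the RNA exosome, had 49 including reads and 26 skipping reads in control, against 45 and 0 with RBM47.

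Other events of the same genes were looked up beside the 353. The 284 genes had 349 further intermediate events, of which 30 were lower with RBM47 by the mirrored rule, and 22 genes held both kinds. TPM1 had differences of 0.117, -0.205 and -0.107 in 3 events, and GOLGA2, a Golgi matrix protein gene, had differences of 0.140 and -0.376. None of the 353 shared both outer ends with an event of lower inclusion. Over 1065 other events of these genes that met the read minimum, the median difference in mean rate was 0. Of these, 74.8% lay within 0.05 of 0, against 83.7% of 21492 events in other genes. Both shares take in events of any control rate, and the sets were not matched for control rate. Their shares of intermediate events may differ, so nothing is read from the contrast, and its cause was not tested.

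Of the matched exons, 71 of 109 (65.1%) had a length that is a multiple of 3, against 55.4% of 1459 matched exons of other intermediate events and 75.6% of 135 with lower inclusion. Among 86 exons that were coding throughout, the share was 76.7%, against 61.6% and 83.9%. The median length was 102 bases (range 18 to 1902), close to 108 in other intermediate exons, while exons with lower inclusion had a median of 72. Exons of at most 60 bases made up 17.4%, 17.1% and 37.0% of the same sets. Those among the 353 included MACF1, PICALM, MYO6 and TRAPPC9, a gene of a vesicle-tethering complex. Whether these shares differ between sets was not tested.

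The intron bases beside the exons were scanned because the study described U-rich sequence at those RBM47 binding sites that carry cross-link-induced deletions, though not at its strongest sites in general. A run of 5 T (TTTTT, transcribed strand only) was in the 100 bases before the exon in 37.6% of matched exons, in 38.4% of other intermediate exons and in 43.0% of exons with lower inclusion. In the 100 bases after the exon the shares were 27.5%, 30.3% and 30.4%. The median share of T was 35% before and 31% after the exon, and it was within 2 percentage points of these values in the other sets. Median introns were 1827 bases before and 1499 after, and the exons had a median GC content of 48.9%. A match is a description of these letters and not a binding site.

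**Figure D5:**
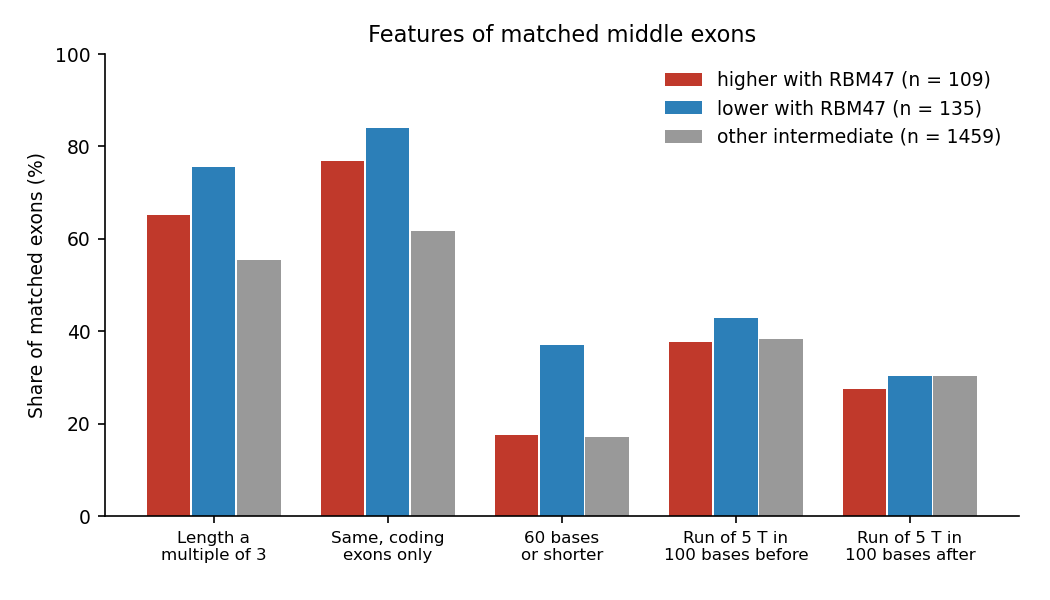
Share of matched middle exons (y axis, %) with a length divisible by 3, the same for coding exons, a length of at most 60 bases, and a run of 5 T within 100 intron bases before or after. Bars are the 109 exons with higher inclusion, 135 with lower inclusion and 1459 other intermediate exons. The share of short exons is 17.4%, 37.0% and 17.1%, and the T-run shares lie close together.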

How the data were processed

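RNA-seq libraries (poly(A)-selected) of 3 control and 3 RBM47 samples were analysed, grouped by their labels. Per the file headers, the deposited table gave an inclusion rate per sample as a fraction, the authors' mean fraction of each group, and read counts of the including and skipping isoform, which the authors summed over the 3 samples of a group. The labels name TopHat. The paper describes mapping of cell line RNA-seq reads by STAR to hg19 (GRCh37), but which aligner made this table, and the build of its coordinates, are not given in the sources used here. GENCODE of GRCh37 named the genes of 24514 events, and 8.77% of these fell inside their gene by the table's coordinates, so positions of spans are the table's own, and only matched exons carry GRCh37 positions. The span of an event equalled a 3-exon span of its gene in 15166 of 24648 events. With 1 or 2 bases added or removed it did so in 588 to 659, so some matches by span may be wrong. Columns with the authors' own comparisons (3: difference, odds ratio and p-value) were not used.

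Exact repeats (77 rows) were dropped. Rates that did not average to the printed averages within 3e-09 were re-matched through them (1122 rows by both averages and 253 by the RBM47 average alone, from rows not yet used), and 17 rows were left without rates. Fisher's exact test was run on the group totals with scipy 1.17.1, pandas 2.3.3 and Python 3.11.15. It pools samples and served only to choose the events. The matching was tried on rates shuffled among rows whose averages were both right, and the rule on simulated counts without spread between replicates. The match by the RBM47 average alone was not simulated. Depth per sample is unknown, so no interval is given for a single rate, and the pooled counts carry counting error only.

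The events and gene lists were chosen with earlier results of these data known. Named events were the 15 with the largest difference in mean rate without overlap, the 10 with the most reads, all in SLK, MDM4, LIMCH1, MBNL1, SEC31A and TNC, the 3 on each side of the 0.10 threshold, up to 4 per gene list by pooled difference, and the 5 with the largest gap between pooled and sample difference. Others (such as PICALM, ADAM15, TPM1, the 5 with lower mean rates and the pairs within a gene) were chosen after their values were seen. Some events that the rule names are not reported here. Sequences were to come from coding exons of at most 150 bases among the largest differences and the genes listed by name. Genes that the table lists as calendar dates were named through their gene number, which also placed TMEM180 among the solute carriers. Alternatives changed the thresholds, the way a rate is computed, the rows used and the samples. The values without the events re-matched by the RBM47 average, and those of events named later without 1 sample, were added after seeing the data.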

Additional observations from a re-analysis of the deposited data

How the results depend on the processing

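The 353 events were counted again under other settings. A minimum of 100 reads left 232, a difference of at least 0.20 left 111, one of at least 0.05 gave 634 and Benjamini-Hochberg adjusted Fisher's exact p under 0.05 left 178. The count changed less with 20 reads (368), wider or narrower control bounds (376 and 262), skipping reads counted once (314), repeats kept (354), 1 event per region (300) and mean sample rates (310, or 293 to 329 leaving out 1 sample). Events without overlap numbered 195, 221 to 232 leaving out 1 sample (with 13.1% to 15.2% of intermediate events then not overlapping) and 79 in rows aligned as deposited, where 182 events had rates. Without the 89 events re-matched by the RBM47 average alone, an alternative chosen after seeing the data, 121 of 260 did not overlap, and differences of at least 0.2, 0.3 and 0.5 numbered 30, 5 and 0 in place of 119, 54 and 10. The median difference was 0.152 to 0.164 leaving out 1 sample and 0.130 in aligned rows. The share of exon lengths that are multiples of 3 went from 65.1% to 76.7% with coding exons only. Of 476 alternatives for 68 named events, 460 moved the difference by less than the spread between replicates, and 12 moved it by more, all 12 with pooled rates in place of sample rates. In ZNF655 (98996091-99000261) the difference was -0.00794, 0.207 by pooled rates and from -0.0238 to 0.0159 leaving out 1 sample. In SEMA4F it was 0.105 and ran from -0.0244 (without control replicate 3) to 0.299, with -0.0120 without RBM47 replicate 3. For 32 further events, with alternatives also chosen after seeing the data, 206 of 224 values moved by less than the replicate spread, 6 moved by more (the ADAM15 events by pooled rates) and 12 changed sign. VEGFA (0.0885) ran from -0.00733 without RBM47 replicate 3 to 0.156. By pooled rates BANF1, FHL1, HINFP and RANBP1 were at 0.107, 0.152, 0.140 and 0.181, and without RBM47 replicate 2 at 0.0145, 0.00192, 0.0243 and 0.00327. Without control replicate 3, FHL1, HINFP and RANBP1 were at 0.00629, 0.00443 and 0.0139, and the lowest values of the 4 leaving out 1 sample were -0.0824, -0.0310, -0.0186 and -0.0267. The causes were not tested. No paired analysis was made, since no difference between groups was tested and the labels do not pair control samples with RBM47 samples. Fisher's exact test, which only chose the events, used read totals of each group that carry no replicate number. Unknown depth per sample limits what a single rate of 0 or 1 can show.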

Other observations

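Several regions held 3 or 4 of the 353 events, which differ in the middle exon and share skipping reads. PRMT2, an arginine methyltransferase gene, had 4 in the span 46880013-46881329 on chromosome 21, with differences in mean rate from 0.172 to 0.203, and no sample overlapped in any of them. CLDND1, a claudin-domain gene, had 3 events from 0.212 to 0.227 with control means of 0.162 to 0.195. EMC8, a subunit of the complex that inserts membrane proteins into the endoplasmic reticulum, had 3 events from 0.128 to 0.167 with control means of 0.525 to 0.689. Both genes kept their groups apart in all 3 events.

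PORCN, an acyltransferase that modifies Wnt proteins, had 2 events in 1 span with sample differences of 0.342 and 0.336, and another event with lower inclusion, with a difference of -0.138. RBM47 replicate 2 stood at 1 in both, and RBM47 replicate 1 stood at 0.214, below the highest control rate of 0.333. Without replicate 2 the differences were 0.122 and 0.113, and by pooled rates they were 0.206 and 0.232. AKT1, a kinase of growth-factor signalling, had 2 events in which RBM47 replicate 3 was at 1 and the groups overlapped, with means of 0.473 ± 0.121 and 0.705 ± 0.274 (SD, n = 3) in 1 of them. Its difference of 0.232 was 0.0846 without RBM47 replicate 3, 0.356 without RBM47 replicate 1 and 0.148 by pooled rates.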
